A study of Mus musculus with 6 samples.

Results

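The genes described here are 8 transcripts best known from resting microglia: Olfml3, Gpr34, P2ry12, P2ry13, Tmem119, Sall1, Cx3cr1 and Selplg. They were measured in macrophages sorted from mouse melanoma. The 8 rows were taken by gene symbol from count tables of 23424 rows, and all 8 passed the filter on low counts that left 14645 protein-coding genes for testing. These genes were chosen by name with their values in the F4/80high against F4/80low contrast already known. Their subset differences are therefore given as a description, with no p-value for any of them, and calls are counted only beside the share of all genes called.

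Microglia, the macrophages of the brain, carry a transcript programme at rest that is called homeostatic. TGF-beta signalling and the transcription factor Sall1 maintain it, and it is lost when the cells leave the brain or respond to injury. P2ry12, Tmem119 and Sall1 serve as markers that set microglia apart from macrophages that derive from monocytes, whereas Cx3cr1 and Selplg are found more widely on monocytes, macrophages and lymphocytes.

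The macrophages came from tumors of YUMM1.7, a melanoma line of the Yale University Mouse Melanoma collection, which was injected intradermally into untreated wild-type C57Bl/6J female mice at 8 weeks of age. Tumors were taken on day 21, and live CD45+ CD11b+ cells were sorted by surface F4/80, a macrophage protein encoded by Adgre1, into F4/80high and F4/80low tumor-associated macrophages (TAMs). The study's methods add a lineage-negative gate, which the labels do not name. Each subset gave 3 libraries from 3 independent experiments, each with 10 pooled tumors, so no value belongs to a single mouse and all tumors were grafts of a single tumor line. Replicates 1 and 2 formed batch 1 and replicate 3 formed batch 2, as read from the study's plot of the samples, since the labels give no batch. Batch 2 therefore holds a single library of each subset, and batch cannot be told apart from the third experiment.

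Total counts lay between 30292061 and 43604373 in batch 1 and were 16045281 and 16204810 in batch 2. The batch 2 libraries also stood apart in composition: the features Lars2, Gm23935 and Gm15564 together took 17.1% and 16.1% of their counts, against at most 0.609% in batch 1. All 10 genes of a macrophage identity list, among them Csf1r, Cd68 and Adgre1, had more than 3 counts in every library. Adgre1 reached 273, 539 and 360 CPM (counts scaled to library size with edgeR's TMM factors) in the F4/80high libraries, replicates 1, 2 and 3 in that order here and below, and 243, 327 and 183 in the F4/80low libraries. F4/80high was above F4/80low in 3 of 3 replicate pairs, by 0.67 ± 0.30 (SE) on the log2 scale (adjusted p = 0.664, edgeR's quasi-likelihood test).

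The 8 genes lie on 5 chromosomes, and 2 pairs of them are neighbours (GRCm38, GENCODE M21). P2ry13 (chr3:59207892-59210882) and P2ry12 (chr3:59216272-59262871) are 5389 bases apart on the minus strand, both inside Med12l, which runs the other way. Tmem119 (chr5:113793729-113800516) and Selplg (chr5:113818536-113832644) are 18019 bases apart on the minus strand with no protein-coding gene between them. Olfml3 lies at chr3:103722222-103738001, Sall1 at chr8:89027235-89044162 and Cx3cr1 at chr9:119901616-120069879, all on the minus strand, and Gpr34 at chrX:13632089-13640858 lies inside Cask on the opposite strand. P2ry12 shares 9 exon bases with Med12l. The strand setting of the counting is not given in the sources used here, so reads of such overlapping genes cannot be told apart.

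RefSeq promoter sequence (GRCm38.p6) was at hand for 5 of the 8 genes. The 250 bases before the start site are shown for P2ry12 and P2ry13, neighbours whose levels moved in opposite directions between batches, and for Cx3cr1, which held the most matches. Capitals mark matches on either strand to 4 motifs of factors at work in microglia: GGAAGT for PU.1, CAGAC for SMAD proteins, TGTGGT for RUNX proteins and, for MEF2 proteins, CTA and TAG with 4 free bases between them.
P2ry12 (chr3:59262986-59263235, minus strand): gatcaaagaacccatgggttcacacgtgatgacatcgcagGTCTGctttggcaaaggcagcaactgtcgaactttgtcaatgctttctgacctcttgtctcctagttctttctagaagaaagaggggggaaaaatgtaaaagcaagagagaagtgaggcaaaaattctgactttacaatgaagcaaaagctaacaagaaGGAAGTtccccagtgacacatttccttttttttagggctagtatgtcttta
P2ry13 (chr3:59210883-59211132, minus strand): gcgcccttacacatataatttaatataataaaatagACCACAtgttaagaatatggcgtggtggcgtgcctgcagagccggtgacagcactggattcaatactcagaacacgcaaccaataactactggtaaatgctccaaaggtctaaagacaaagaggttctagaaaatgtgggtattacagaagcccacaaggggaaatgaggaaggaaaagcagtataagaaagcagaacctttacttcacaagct
Cx3cr1 (chr9:120068297-120068546, minus strand): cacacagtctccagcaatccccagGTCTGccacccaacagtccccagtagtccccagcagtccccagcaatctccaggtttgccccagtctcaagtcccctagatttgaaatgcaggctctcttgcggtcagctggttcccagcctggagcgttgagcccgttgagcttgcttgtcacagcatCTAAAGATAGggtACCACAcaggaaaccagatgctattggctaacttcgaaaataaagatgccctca

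The P2ry12 window held 1 PU.1 and 1 SMAD match, at positions -51 and -210 from the start site. P2ry13, its neighbour, held a single RUNX match. The Cx3cr1 window held 1 SMAD and 1 RUNX match, and a MEF2 match whose letters fit both strands. Over the same 250 bases of all 32851 promoters, 19.7% held the PU.1 letters, 42.2% the SMAD letters, 14% the RUNX letters and 3.2% the MEF2 letters. The Olfml3 window held none of them. Sall1 had several windows, which held 1 SMAD match, at position -158, and, in a different window, 1 PU.1 match, at -180. These matches are a description of the letters only.

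The clearest subset differences belonged to 3 surface or secreted proteins. Olfml3, Gpr34 and Cx3cr1 were each higher in F4/80high TAMs in 3 of 3 pairs, by a fitted 3.63-fold, 3.77-fold and 2.22-fold. Tmem119 and P2ry12 were also higher in every pair, by smaller amounts, P2ry13 was mixed, Selplg was lower in every pair, and Sall1 turned direction between batches. In no gene of the 8 did the 3 libraries of a subset lie entirely above those of the other. In bulk libraries, fewer cells that carry a transcript and less of it per cell cannot be told apart.

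**Figure D1:**
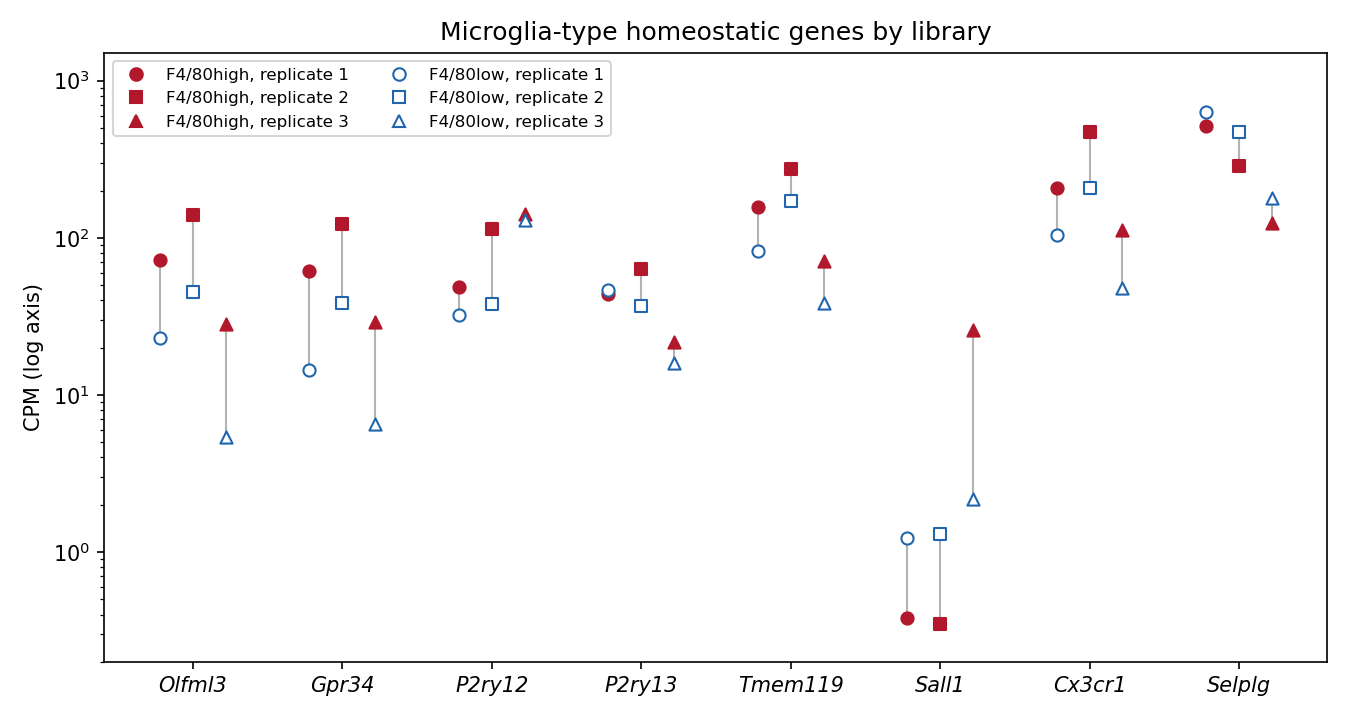
Level of each of the 8 genes in each library, in CPM on a log axis. Filled red symbols are F4/80high and open blue symbols F4/80low libraries, marker shape gives the replicate, and a line joins the libraries of a pair. The pairs of Olfml3, Gpr34, Tmem119 and Cx3cr1 are spread apart in the same direction at different heights, and Sall1 stands near 26.1 CPM in a single library.

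Olfml3, a secreted olfactomedin-domain glycoprotein of the extracellular matrix, was at 71.8, 140.3 and 28.1 CPM in the F4/80high libraries and at 23.0, 45.4 and 5.36 CPM in the F4/80low libraries. The lowest F4/80high library, that of batch 2, fell below the highest F4/80low library of batch 1, so the subsets overlapped although each pair was well separated. The fitted difference was 1.86 ± 0.37 on the log2 scale, and the pairs gave 1.64, 1.63 and 2.38. Summed CPM of 10 fibroblast and mural cell markers was 564 to 1578 in F4/80high and 1308 to 1954 in F4/80low. Of these 10, 9 were lower in F4/80high, where 50.8% of all genes tested were higher. Lower in 3 of 3 pairs were 6 of the 10, as 16% of all genes were. Col1a1, a collagen gene that defines fibroblasts, stood at 42.3 to 87.1 CPM in F4/80high and 52.0 to 121 CPM in F4/80low. The part of such cells in the Olfml3 levels was not tested.

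Gpr34, a receptor for lysophosphatidylserine, closely followed Olfml3. Its F4/80high libraries held 61.4, 123 and 29.2 CPM and its F4/80low libraries 14.5, 38.4 and 6.50 CPM. As for Olfml3, the batch 2 library of F4/80high lay within the range of the batch 1 libraries of F4/80low. The difference was 1.91 ± 0.41 on the log2 scale, with pairs of 2.08, 1.68 and 2.16. With the level of each batch removed, Gpr34 and Olfml3 had a Pearson r of 0.989 over the 6 libraries, the highest of the 28 pairs among the 8 genes.

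P2ry12, the ADP receptor by which microglial processes find sites of damage and which also sits on platelets, was at 48.6, 113 and 141 CPM in F4/80high and at 32.4, 37.7 and 129 CPM in F4/80low. Here both batch 2 libraries were at the top, and within batch 2 the subsets were nearly level. The fitted difference of 0.85 ± 0.36 on the log2 scale was made up of unequal pairs of 0.58, 1.58 and 0.13. It became 0.29 when F4/80high replicate 2 was left out. Without replicate 3 of either subset it became 1.21, since the batch term then takes up the batch 2 library that remains. Platelet and megakaryocyte markers summed to 14.8 to 39.4 CPM in F4/80high and 29.0 to 47.1 CPM in F4/80low libraries. Of the defining platelet genes, Itga2b was at 1.62 to 7.60 and 7.42 to 15.4 CPM, and Gp9 had between 0 and 20 counts per library.

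P2ry13, a second ADP receptor of the same family, was at 43.9, 63.4 and 21.8 CPM in F4/80high and at 46.4, 36.8 and 16.1 CPM in F4/80low. Its subsets overlapped widely and its pairs did not share a direction, at -0.08, 0.78 and 0.44 on the log2 scale. The fitted difference was 0.39 ± 0.25.

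Tmem119, a membrane protein of unsettled function in microglia, was at 156, 273 and 71.1 CPM in F4/80high and at 82.7, 171 and 38.7 CPM in F4/80low. The order of the libraries was the same in both subsets, with replicate 2 highest and replicate 3 lowest. Its difference was 0.80 ± 0.32 on the log2 scale, and the pairs lay close together at 0.92, 0.67 and 0.88.

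Cx3cr1 is the receptor of fractalkine, the product of Cx3cl1. It was at 208, 471 and 112 CPM in F4/80high and at 105, 207 and 48.3 CPM in F4/80low, again with replicate 2 highest in both subsets and with overlap between them. The difference was 1.15 ± 0.36 on the log2 scale, and its pairs lay close together at 0.99, 1.18 and 1.21. NK cells and some T cells also carry Cx3cr1. Markers of T and NK cells summed to 1510, 404 and 228 CPM in F4/80high and 538, 661 and 110 CPM in F4/80low, with Cd3e at 163, 59.2 and 34.7 and at 52.5, 68.8 and 14.6 CPM. Of these markers 9 of 9 tested were above 0 (median 0.86 on the log2 scale), but 0 were higher in all 3 pairs. The log2 ratios of Cd3e in the pairs were 1.63, -0.22 and 1.25. The study's antibody panel covers T, NK and B cells, and its methods name a lineage-negative gate. All 10 markers of the T and NK list still had more than 3 counts in every library. Whether the gate left such cells out was not tested. Cx3cl1 itself was at 24.9, 13.1 and 10.8 CPM in F4/80high and 25.0, 21.8 and 20.0 CPM in F4/80low, a difference of -0.49 ± 0.32 on the log2 scale (adjusted p = 0.733). Of the 4 partners of the axis tested, Cx3cl1 and the proteases Adam10, Adam17 and Ctss, 3 were above and 1 below 0, and none was called in any of edgeR with batch, edgeR with the replicate block or DESeq2.

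Selplg encodes PSGL-1, the ligand through which leukocytes roll on selectins. It was at 518, 288 and 124 CPM in F4/80high and at 634, 471 and 180 CPM in F4/80low. It was lower in F4/80high in every pair, by -0.29, -0.71 and -0.54 on the log2 scale, although the subsets overlapped. The fitted difference was -0.48 ± 0.27. Of 14 other genes that act on PSGL-1, selectins and glycosylation enzymes, none was called in edgeR with batch, edgeR with the replicate block or DESeq2. Of these, 12 were below 0 and 8 were lower in 3 of 3 pairs, as 16% of all genes were, with a median of -0.25 on the log2 scale against 0.0091 over all 14645 genes. The sialyltransferase St3gal4 differed by -0.85 ± 0.33 (adjusted p = 0.607) and the fucosyltransferase Fut4 by -0.82 ± 0.32 (adjusted p = 0.621). B4galt1, a galactosyltransferase, was at 0.33 ± 0.23 and St3gal6 near 0. Selp, which encodes the PSGL-1 receptor P-selectin, was at 0.583 to 6.38 CPM in F4/80high and 2.63 to 16.5 CPM in F4/80low.

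Markers of neutrophils, monocytes and eosinophils, which also bear PSGL-1, were lower in F4/80high together with Selplg. Those of T and NK cells, given above, had 9 of 9 tested above 0 (median 0.86 on the log2 scale), but 0 were higher in all 3 pairs. Neutrophil markers were below 0 in 8 of 8 genes (median -1.23 on the log2 scale), at a summed 529 to 1907 CPM in F4/80high and 1117 to 4174 CPM in F4/80low. Monocyte markers were below 0 in 10 of 10 genes (median -1.04), at 1451 to 4241 and 3196 to 8365 CPM, and eosinophil markers in 8 of 8 (median -1.68), at 93.8 to 187 and 271 to 621 CPM. Among them the block called Vcan, Chil3, S100a8, S100a9, Ngp, Cxcr2 and Mmp8 lower, where it called 0.287% of all genes lower. DESeq2, which called 0.71% of all genes lower, called Vcan, Chil3 and Treml4 of the monocyte list, Retnlg, Ngp, Ltf and Mmp8 of the neutrophil list, and Siglecf, Prg2, Ccr3 and Ear2 of the eosinophil list. The part of these cells in the levels of Selplg was not tested, nor was that of lymphocytes in Cx3cr1.

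Sall1, a zinc finger transcription factor of microglial identity, was the rarest of the 8 and the least even. It had 15, 18 and 241 counts in the F4/80high libraries and 49, 53 and 19 counts in the F4/80low libraries, that is 0.379, 0.35 and 26.1 CPM against 1.23, 1.30 and 2.17 CPM. A single library, F4/80high replicate 3, stood far above the rest, with an exact 95% binomial interval of 22.9 to 29.6 CPM, while its F4/80low partner had an interval of 1.31 to 3.39 CPM. In batch 1 the order was the reverse, with F4/80high replicate 1 at 0.212 to 0.624 CPM and F4/80low replicate 1 at 0.910 to 1.63 CPM. These intervals cover counting error only. The pairs were -1.55, -1.73 and 3.55 on the log2 scale, and the fitted difference of -0.28 ± 1.08 was 2.51 with no batch term and -1.79 without replicate 3 of both subsets. Of its paralogs, Sall3 was not analysed here.

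**Figure D2:**
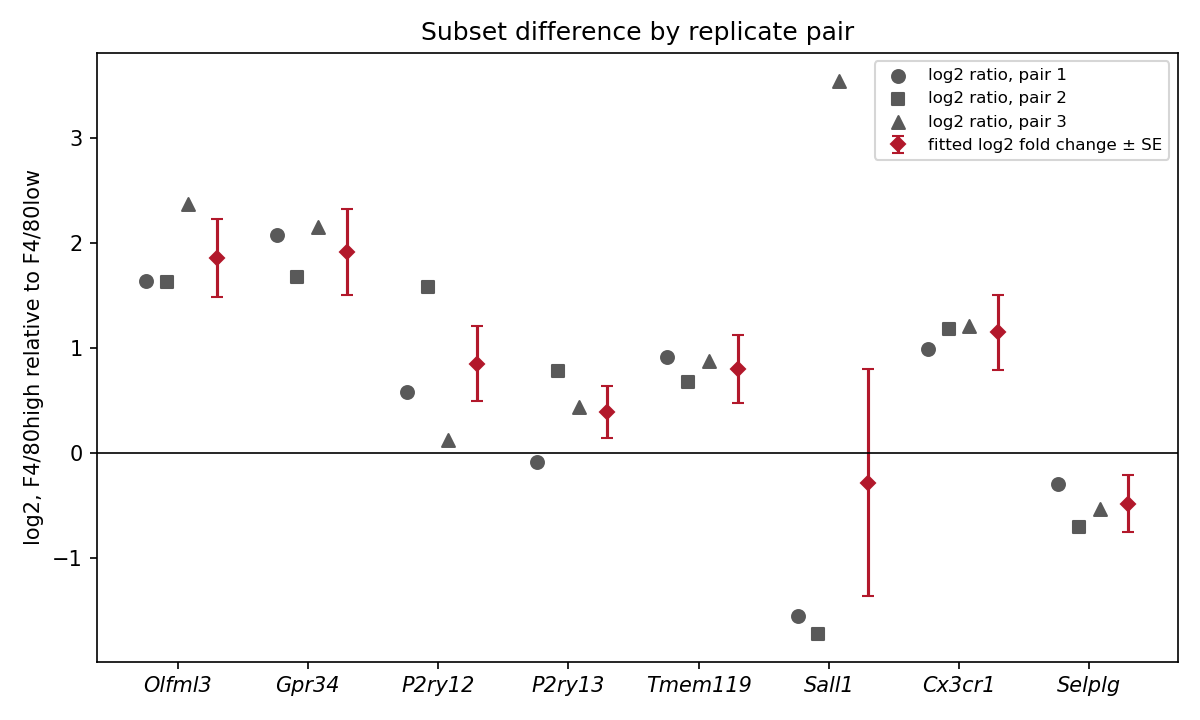
Log2 ratio of F4/80high to F4/80low in each of the 3 replicate pairs (grey, shape by pair) and the difference fitted with batch (red diamond, bar of 1 SE) for each of the 8 genes. Olfml3, Gpr34, Tmem119 and Cx3cr1 have 3 closely placed pairs above 0, Selplg has 3 below 0, and the pairs of Sall1 run from -1.73 to 3.55.

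Across the 8 genes the median difference was 0.82 on the log2 scale, beside 0.0091 over all genes tested. Genes were called at an adjusted p below 0.05 with an absolute log2 difference above 1. The edgeR fit with batch called 0 of 8 and 0% of all genes in either direction, although 1113 genes had an unadjusted p below 0.05 and DESeq2 called 150. Using the replicate number as a block takes same-numbered libraries as pairs from a shared experiment. With this block, 3 of the 8 were called higher in F4/80high (Olfml3, Gpr34 and Cx3cr1) against 0.232% of all genes, and 0 were called lower against 0.287%. DESeq2 with batch called Olfml3 and Gpr34 higher (0.314% of all genes) and none of the 8 lower (0.71%). Without F4/80high replicate 1, edgeR with batch called the same 2 of the 8 and 77 genes in all. Higher in 3 of 3 pairs were 5 of the 8 (17.7% of all genes), and lower in 3 of 3 was Selplg (16% of all genes). Complete separation of the 3 F4/80high from the 3 F4/80low libraries was seen in 0 of the 8, against 2.3% of all genes upward and 2.9% downward. Since the genes were chosen on this contrast, nothing is read from these shares.

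Batch was a measure that the choice of the genes had not used, and with TMM scaling all 8 passed its test. The test took all libraries as independent, although same-numbered libraries were taken as pairs from the same experiment. Batch 2 is a single experiment, so the batch p-values here and below do not measure spread between experiments. At an adjusted p below 0.05 at any size, 6 were lower in batch 2, where 22.7% of all genes were, and 2 were higher, where 20% of all genes were. Olfml3 fell by 2.25 ± 0.43 on the log2 scale (adjusted p = 0.00267), Gpr34 by 1.83 ± 0.47 (adjusted p = 0.0112). Tmem119 fell by 1.65 ± 0.37 (adjusted p = 0.00613) and Cx3cr1 fell by 1.65 ± 0.41 (adjusted p = 0.00979). Selplg fell by 1.66 ± 0.31 (adjusted p = 0.00254) and P2ry13 by 1.33 ± 0.28 (adjusted p = 0.00457). P2ry12 was higher in batch 2 by 1.38 ± 0.37 (adjusted p = 0.0136) and Sall1 by 4.30 ± 1.18 (adjusted p = 0.0161).

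The size of the batch differences depended on the scaling. The median over all genes tested was -0.35 on the log2 scale with TMM factors and -1.37 with total counts alone. With total counts alone 6 of the 8 were called, all lower, P2ry13 was at -2.35 and Tmem119 at -2.67, and P2ry12 at 0.36 (adjusted p = 0.401) and Sall1 at 3.32 (adjusted p = 0.0509) were no longer called.

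These batch calls also rested on both batch 2 libraries. Without F4/80high replicate 3 only Olfml3 and P2ry12 of the 8 were still called, and the Sall1 difference was 0.77 (adjusted p = 0.698). Without F4/80low replicate 3 Olfml3, Selplg and Sall1 were called, P2ry12 was at 0.81 (adjusted p = 0.276) and Sall1 at 6.15. The opposite batch direction of P2ry12 and P2ry13 was kept in both of these fits. The experiment, the depth and the feature shares given above all changed with batch, and their part in these differences was not tested.

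**Figure D3:**
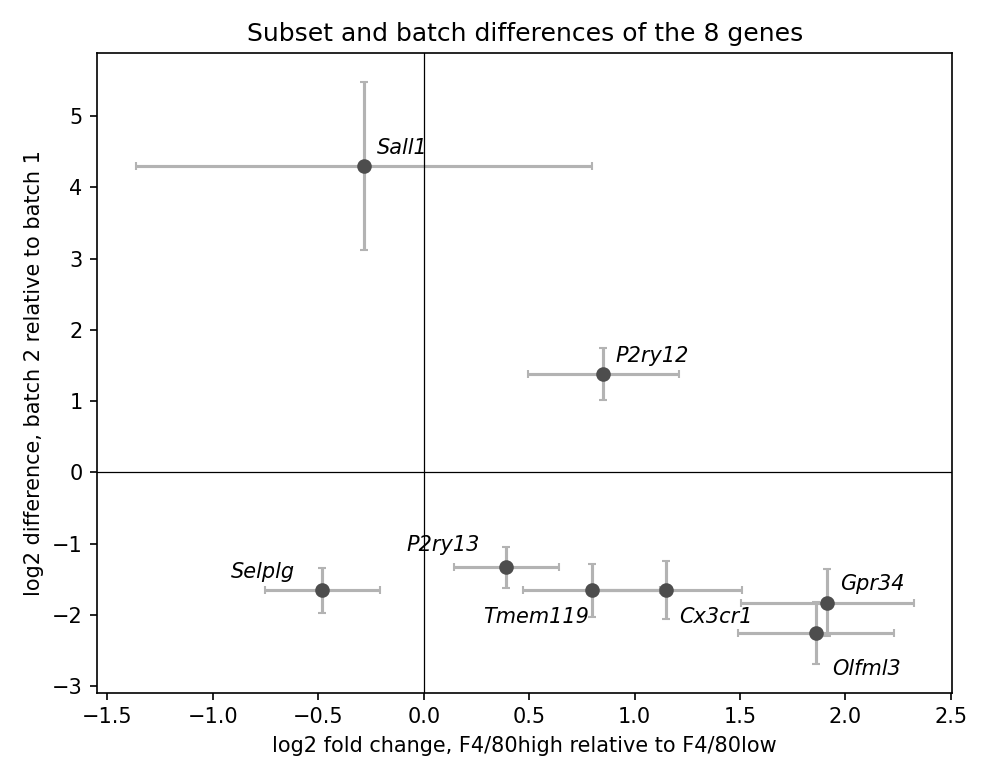
Subset difference (horizontal axis, log2, F4/80high relative to F4/80low) and batch difference (vertical axis, log2, batch 2 relative to batch 1) of the 8 genes, with bars of 1 SE in each direction. P2ry12 and Sall1 lie above 0 on the vertical axis and the other 6 between -1.33 and -2.25.

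The genes around P2ry12 did not share a batch response. Gpr171, an orphan receptor, and P2ry14, the receptor for UDP-glucose, lie in the same cluster inside Med12l, and both were higher in batch 2, by 2.11 ± 0.33 (adjusted p = 0.000971) and 2.28 ± 0.29 (adjusted p = 0.000295), or by 1.07 and 1.24 with total counts alone (adjusted p = 0.0286 and 0.00818). P2ry14 was at 53.7, 29.0 and 234 CPM in F4/80high and 53.7, 71.7 and 259 CPM in F4/80low. Gpr171 was at 174, 74.3 and 622 CPM and at 152, 113 and 488 CPM. P2ry13, which lies between P2ry14 and P2ry12, was the exception with its lower level in batch 2. Per base of transcript, the P2ry12 to P2ry13 ratio was 0.693 to 1.77 in the 4 batch 1 libraries and 6.43 and 7.99 in those of batch 2. Med12l stayed between 1.53 and 12.7 CPM, below P2ry12 in every library, with a batch difference of 1.08 ± 0.59 (adjusted p = 0.173).

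**Figure D4:**
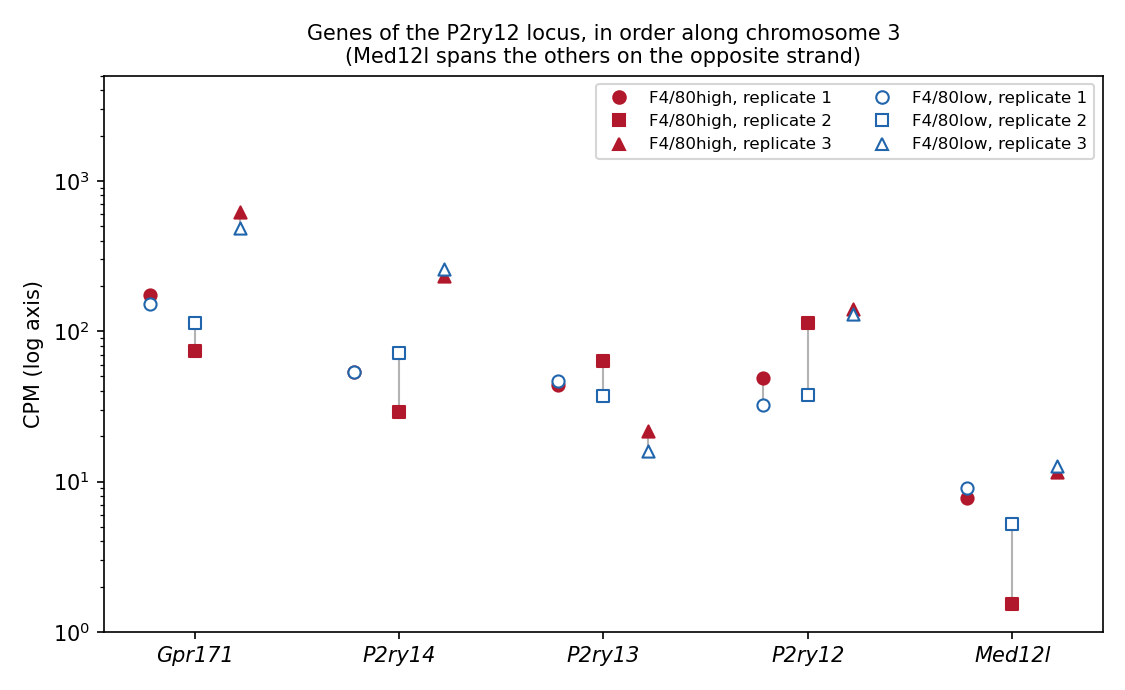
Levels in CPM on a log axis of the genes of the P2ry12 cluster in each library, ordered along chromosome 3 with Med12l last (filled red, F4/80high; open blue, F4/80low; shape by replicate). The replicate 3 triangles are the highest points of Gpr171, P2ry14 and P2ry12 and the lowest of P2ry13.

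Other receptors and enzymes of nucleotide signalling showed no common direction between subsets. Of 17 tested, 8 were above and 9 below 0, with a median of -0.13 on the log2 scale. P2ry6, the UDP receptor, was at 1.06 ± 0.35 (adjusted p = 0.525), the ATP-gated channel P2rx7 at 1.04 (adjusted p = 0.597) and the potassium channel Kcnk13, which is abundant in microglia, at 1.30 ± 0.51 (adjusted p = 0.621). P2ry2, a receptor for ATP and UTP, was at -1.35 ± 0.32 and was the only member of the list called by DESeq2 (adjusted p = 0.0222), while edgeR with batch gave an adjusted p of 0.439 and with the block 0.137.

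The rest of the homeostatic programme was read from a list of 28 further genes, of which 27 were tested. Their median difference was 0.55 on the log2 scale, with 23 above and 4 below 0, where 50.8% of all genes tested were above 0. At an unadjusted p below 0.05, 10 were higher and 0 lower. Of all 14645 genes, 1113 reached this threshold, 480 of them higher. With batch as a term 0 passed, the lowest adjusted p being 0.439. With the replicate block 7 were called higher and 0 lower, beside the 0.232% and 0.287% of all genes: Fcrls, Hpgds, Mertk, Gas6, C1qa, C1qb and C1qc, with adjusted p between 0.0272 and 0.0474. Mertk and C1qa are also on the macrophage identity list, so not all of these calls are particular to microglia. The 28 genes were chosen with earlier results of these data known. DESeq2, which called 0.314% of all genes higher, called Slco2b1, Hpgds and Mertk. Without F4/80high replicate 1, edgeR with batch called Fcrls, Slco2b1, Hpgds, Mertk and Gas6, where it called 37 of all 14645 genes higher.

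Hpgds, a prostaglandin D2 synthase, was at 66.4, 147 and 127 CPM in F4/80high and at 13.4, 47.2 and 11.6 CPM in F4/80low, and its subsets did not overlap. Fcrls, an Fc receptor-like scavenger of microglia, was the other gene of the list with every F4/80high library above every F4/80low library, at 377, 1255 and 737 against 79.4, 339.9 and 38.8 CPM. Such separation was thus seen upward in 2 of the 27, beside 2.3% of all genes, and downward in 1 of the 27, beside 2.9%. Mertk, a receptor for dying cells, was at 38.2, 112 and 109 CPM in F4/80high and at 17.7, 28.8 and 38.2 CPM in F4/80low. Its ligand Gas6 differed by 2.88 ± 0.77 on the log2 scale and Slco2b1, an organic anion transporter, by 2.77 ± 0.70. The C1q chains, which start the classical complement cascade, differed by 1.93 ± 0.58 (C1qa), 1.71 ± 0.55 (C1qb) and 2.07 ± 0.64 (C1qc). Gas6, Fcrls and the C1q genes are named because they were called, outside the rule for named genes.

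Below 0 stood Sparc, a matrix protein, at -0.59 ± 0.34 (adjusted p = 0.699), Spi1, which encodes PU.1, at -0.32 ± 0.21 (adjusted p = 0.725), and Cst3, a protease inhibitor, at -0.30 ± 0.23 (adjusted p = 0.770). The other gene below 0 was Crybb1, at most 2.05 CPM in any library. Its 3 F4/80high libraries all lay below its 3 F4/80low libraries. Siglech, which marks both microglia and plasmacytoid dendritic cells, was at 16.6, 1.22 and 4.32 CPM in F4/80high and 7.38, 7.74 and 2.17 CPM in F4/80low, with no shared direction among the pairs.

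**Figure D5:**
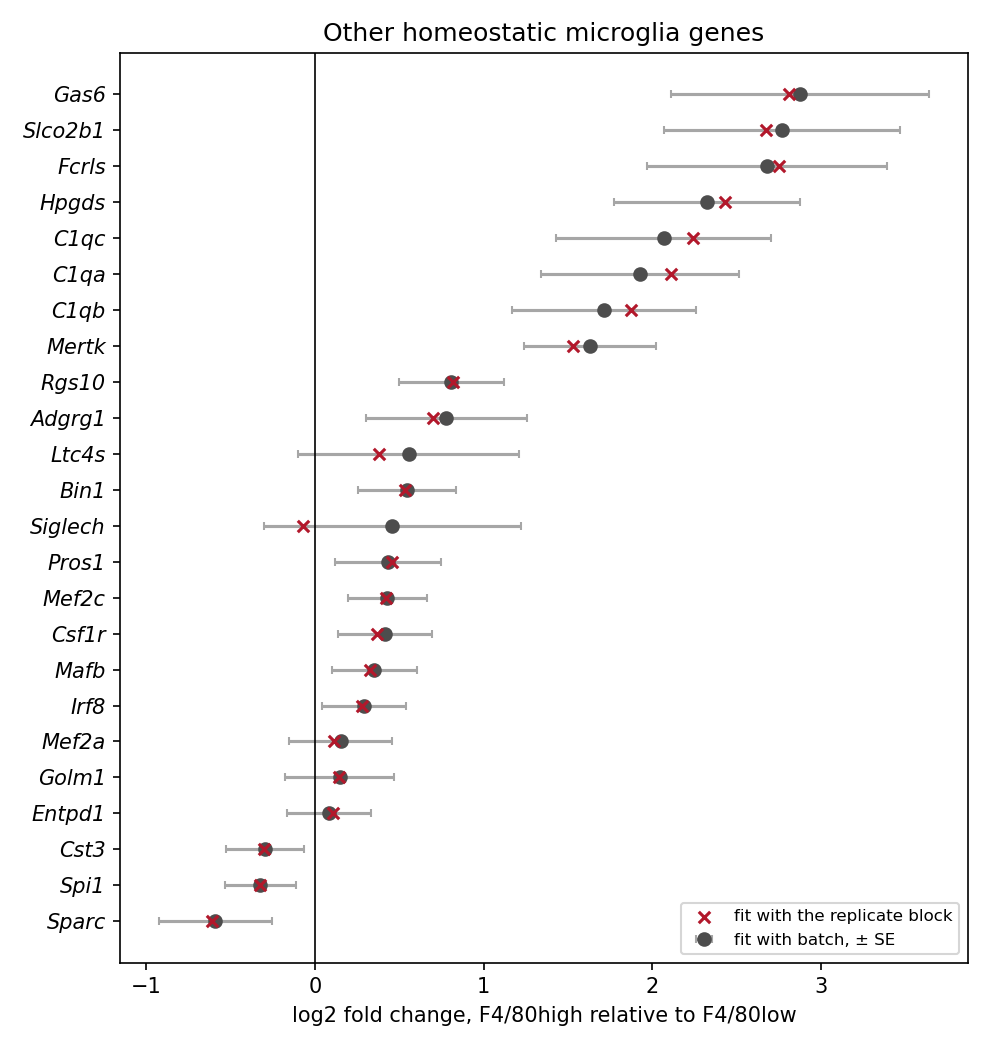
Log2 difference between F4/80high and F4/80low TAMs of genes of the wider homeostatic list whose mean log2 CPM reached 1, from the fit with batch (grey, bar of 1 SE) and from the fit with the replicate block (red crosses). Gas6, Slco2b1, Fcrls, Hpgds and C1qc lie above 2 in both fits, and Cst3, Spi1 and Sparc lie below 0.

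Microglia that have left the homeostatic state take on a disease-associated set, and genes of that set also lay mostly above 0 here. Of 19 tested, 14 were above 0, where 50.8% of all genes tested were, and the median was 0.49 on the log2 scale. The block, which called 0.232% of all genes higher, called Apoe, Trem2 and Ch25h higher (adjusted p = 0.0347, 0.0381 and 0.0272). DESeq2, which called 0.314% of all genes higher, called Igf1 (2.14 on the log2 scale, adjusted p = 0.00558). For Igf1 the edgeR fit with batch gave 2.12 ± 0.48 (adjusted p = 0.439). Apoe, a lipid carrier, was at 5339, 9710 and 2396 CPM in F4/80high and at 2006, 5341 and 624 CPM in F4/80low. On the other side Itgax, an integrin of dendritic cells and some macrophages, was at -0.62 ± 0.24 and the tetraspanin Cd9 at -0.54 ± 0.24, neither called in any of the 3 fits. The 17 genes of the TGF-beta pathway gave a median of -0.12, with 7 above 0 and none called between subsets. Tgfbr2, the receptor that binds the ligand, was at 0.56 ± 0.25 (adjusted p = 0.65).

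The order of the 8 genes can be read only from levels per length, given as TPM, counts divided by the deposited gene length and scaled to the same total in each library. Averaged over the 6 libraries, Selplg was at 279 TPM, Tmem119 at 181, Cx3cr1 at 162, P2ry12 at 92.0, Gpr34 at 69.0, P2ry13 at 47.7, Olfml3 at 27.1 and Sall1 at 2.55. Spread between libraries was wide, and most neighbours in this order changed places in some library. Only P2ry13 was above its next gene, Olfml3, in 6 of 6 libraries. Tmem119 was above Cx3cr1 and Olfml3 above Sall1 in 5 of 6, Selplg above Tmem119 in 4 of 6, and P2ry12 above Gpr34 in 3 of 6. By subset, Selplg was at 237 ± 179 TPM in F4/80high and 321 ± 207 in F4/80low, and Tmem119 at 228 ± 147 and 134 ± 103 (SD, n = 3). P2ry12 was the highest of the 8 in both batch 2 libraries. The deposited length of Cx3cr1, 3742 bases, was shorter than the 4505 exon bases of GENCODE M21.

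How the 8 genes moved from library to library was compared after the mean of each batch was removed. Olfml3, Gpr34, Tmem119 and Cx3cr1 formed a tight set, with Pearson r of 0.930 to 0.989 over their 6 pairs. Selplg ran against it: its r with Cx3cr1 was -0.977, and with every gene of the 8 but Sall1 it lay between -0.977 and -0.752. With the batch means removed, Tmem119 and its chromosomal neighbour Selplg thus varied in opposite directions, although both were lower in batch 2. The Tmem119 to Selplg ratio per length was 0.556, 1.75 and 1.05 in F4/80high against 0.241, 0.670 and 0.396 in F4/80low, higher in each pair. Sall1 followed none of them, with r between -0.383 and 0.201. These are values over 6 libraries that share subset and experiment, and are given as a description.

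Over the 11373 genes whose mean log2 CPM reached 1, the same measure named the nearest transcripts of each gene. They were Zfp637, Lysmd1 and Mcm5 for Olfml3 (r from 0.998), Cd72, Sumo3 and Sesn1 for Gpr34 (from 0.998), and Tmem256 and Pmepa1 for Tmem119 (from 0.999). For Cx3cr1 they were S1pr1, Zfp367 and Tyms (from 0.999), and for Selplg Sun2, Nfkbia and Vasp (from 0.997). For P2ry12 they were Ywhae, Ankrd49 and Pyroxd2 (from 0.998), for P2ry13 B230219D22Rik, Tmem87a and Slc31a2 (from 0.996), and for Sall1 Psen2, Mettl17 and Vars2 (from 0.992). None of the 8 was among the 3 nearest of another, and with 6 libraries such values describe these samples only.

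Of other cell types in the tumor, dendritic cell markers were below 0 in 6 of 7 genes (median -0.76 on the log2 scale) and endothelial markers in 5 of 7 (median -0.42), with Pecam1 at 24.3 to 67.3 CPM. Endothelial cells, melanoma cells and keratinocytes lack CD45, by which the cells were sorted. More than 3 counts in every library were still seen for 4 of 8 endothelial and 2 of 6 melanoma markers. Of the Langerhans cell and keratinocyte markers, 0 of 6 reached this. Melanoma markers were nearly absent, with Pmel at 0.432 to 1.82 CPM. Langerhans cell and keratinocyte markers summed to at most 5.22 CPM in any library. The levels of these lists moved with the subsets or batches beside the 8 genes, and their part in the differences was not tested.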

How the data were processed

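RNA-seq was made from 6 libraries of sorted YUMM1.7 TAMs, 3 F4/80high and 3 F4/80low, grouped by their titles. The deposited tables hold unnormalized read counts per gene, a gene length in bases and a biotype, which the authors made with the standard alignment pipeline of the Yale Center for Genome Analysis. The aligner, its version, the genome build, the annotation and the strand setting are not given in the sources used here. Coordinates and biotypes were taken from GENCODE M21 (GRCm38), where 99.4% of gene IDs matched, and no coordinate came from the tables.

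The 14645 protein-coding genes whose counts over all libraries came to 10 or more were tested with edgeR 4.0.16 in R 4.3.3 (TMM, quasi-likelihood test, batch as a term, Benjamini-Hochberg adjustment), after a check on simulated counts. DESeq2 1.42.0, other scaling, filters and biotypes, the replicate number as a block and leaving out libraries were the alternatives. The SE of a log2 difference was taken from the test statistic. Log2 ratios of pairs used a prior count of 2. Replicates are the independent experiments of the study. Same-numbered libraries were taken as pairs from the same experiment. After subtraction of subset means their log2 CPM correlated at 0.731, 0.709 and 0.893 over 10455 genes. Libraries of different number were not compared in this way, so these values cannot show that the numbers pair them. Counting alone limits a library's value by the binomial intervals given for Sall1.

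The 8 genes, the gene lists and the tests were chosen with earlier results of these data known. Named were the 8 genes, Adgre1, up to 3 genes per list and direction with the smallest p where mean log2 CPM reached 1, chosen ligands, cluster neighbours and defining markers, and the 3 genes most correlated with each of the 8. Gp9, Csf1r and Cd68, outside this rule, were added after their values were seen, and further genes outside it complete a count of calls or of a list. A few genes that the rule or the lists hold are not reported here by name.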

Additional observations from a re-analysis of the deposited data

Results flagged for a closer look

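Sall1 stood out because its replicate pairs took opposite directions: both batch 1 pairs were lower in F4/80high (-1.55 and -1.73 on the log2 scale), and the batch 2 pair was higher, by 3.55. The difference between batches was not tested, since batch 2 holds a single pair. The same split, with both batch 1 pairs on one side and the batch 2 pair on the other, was seen in 2605 genes, or 17.8% of those tested. Groups of 3 libraries are too small for a test of single outlying samples.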

How the results depend on the processing

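The number of genes called between subsets was 0 with edgeR and batch and in most alternatives (RLE factors, total counts, no batch term, other filters and biotypes, without replicate 3 of both subsets), and 150 with DESeq2 and 76 with the replicate block. Leaving out single libraries gave 0 to 77 genes, the 77 without F4/80high replicate 1. Of the 8 genes, DESeq2 called 2, the replicate block 3 and the fits without single libraries 0 to 2. Of the other homeostatic genes, DESeq2 called 3, the replicate block 7 and the fits without single libraries 0 to 5. The median difference of the 8 genes, 0.82 on the log2 scale, lay between 0.61 and 1.03 without single libraries. The batch term called all 8 genes, but 2 when F4/80high replicate 3 was left out and 3 when F4/80low replicate 3 was, a range of 2 to 8 over the fits that drop a library, and 6 with total counts alone, where P2ry12 (0.36, adjusted p = 0.401) and Sall1 were lost. The direction of the subset difference held in all 16 alternatives for 7 of the 8 genes, and Sall1 was above 0 in 5 of 16. The cause of these changes was not tested. The block changed no other call among the 8. Counting error limits mainly Sall1, with 15 to 53 counts in 5 of 6 libraries. In F4/80low replicate 3, Olfml3 had 47 counts (binomial interval 3.94 to 7.13 CPM) and Gpr34 had 57 counts (4.93 to 8.43 CPM).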
